A study of Saccharomyces cerevisiae with 6 samples.

Results

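The response of the haploid yeast BY4742 to compound 089 was read from 2 arrays with 2 colours, out of 6 arrays in the series. BY4742 is a laboratory strain of Saccharomyces cerevisiae, of mating type alpha with mutant his3, leu2, lys2 and ura3 genes, which has both ERG6 and SNQ2 intact. Both of its arrays were chosen by their titles, and each set cells given 089 at 0.2 mM for 4 h (Cy5) against untreated cells of the same strain (Cy3). The other 4 arrays did the same for erg6 deletion cells (erg6::kanMX4) and snq2 deletion cells (snq2::kanMX), with 2 arrays per strain. All groups shared rich glucose medium at pH 4.8, 28 °C and a very dense culture. The series text calls the arrays of a strain biological replicates, and the labels name no separate clones or cultures beyond that, so the p-values measure the spread between these arrays. The labels give 089 a chemical name, a bicyclic acetal carboxamide that carries a benzhydryl group, and say nothing of its target.

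A budding yeast cell in glucose medium lives mainly by fermentation and keeps respiration, storage carbohydrate and general stress genes low while sugar lasts. In a dense culture it turns to respiration, switches on genes read by the Hap complex and by Msn2 and Msn4, and slows ribosome production. Its plasma membrane is kept in shape by ergosterol, sphingolipids and eisosomes, which are protein-lined furrows, while Pdr1 and its partners set the level of drug exporters. ERG6 encodes a late enzyme of ergosterol synthesis, and loss of it is known to make cells more permeable to drugs. SNQ2 encodes a multidrug exporter of the plasma membrane.

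The deposited log2 ratios covered 7045 features with 0 missing values, and 6362 of these were genes. Direction and log base are likely but not stated: values were taken as log2 of treated over untreated, so that above 0 means more RNA after 089. The treated cells carried Cy5 on every array, and a dye effect of a gene cannot be told apart from its response. Across genes, the BY4742 replicates correlated at r = 0.901, against 0.713 for the erg6 deletion and 0.916 for the snq2 deletion, which describes the libraries and tests nothing. The standard deviation of the difference between replicates was 0.357 in BY4742, 0.675 in erg6 deletion cells and 0.332 in snq2 deletion cells. The 683 control spots, named Blank or empty in the table, did not lie at 0. Their median in BY4742 was 0.57 (-0.29 for the 144 spots named Blank and 0.70 for the 539 named empty), and the central 95% of them ran from -1.36 to 2.49 (log2). At the threshold used for genes 43.2% of control spots passed, 32.9% above 0 and 10.2% below it. The 2 kinds of control differed. Of the Blank spots 70.1% passed, 28.5% above 0 and 41.7% below it, and their central 95% ran from -1.77 to 2.10. Of the empty spots 36% passed, 34.1% above 0 and 1.86% below it, and their range was -0.84 to 2.56. Blank spots thus passed as falls more often than the 26.7% of genes that did. As rises, both kinds of control passed more often than the 27.3% of genes that did. How far the signal of weakly expressed genes shares this behaviour was not tested, since spot intensities were not used here.

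Over all genes, 3434 (54%) changed in BY4742 after 089, with 1736 higher (27.3%) and 1698 lower (26.7%). A gene is said to have risen or fallen where limma's adjusted p was at or below 0.05 and both arrays lay on one side of 0. Leaving out replicate 1 left 1914 such genes, and leaving out replicate 2 left 2149. Most changes were small: 544 genes rose by at least 2-fold (8.55%) and 439 fell by as much (6.9%). At 2 or more on the log2 scale, 108 rose and 21 fell. Outside the range of the control spots lay 56 genes that rose (0.88%) and 184 that fell (2.89%). Of the 184, 175 are annotated in the current genome assembly, against 30 of the 56. These counts depend on the kind of control: against Blank spots alone 97 rises and 65 falls lay outside the range, and against empty spots alone 51 rises and 620 falls. The pooled range is meant below unless a kind of control is named. The median ratio was -0.02 on both arrays.

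**Figure D1:**
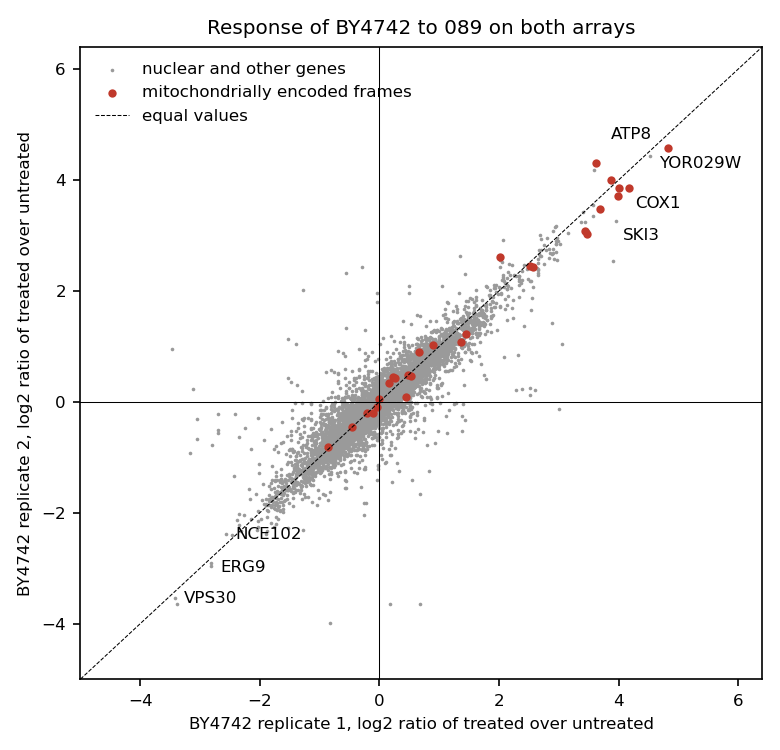
Log2 ratio of treated over untreated on BY4742 replicate 1 (x axis) and replicate 2 (y axis), 1 point per gene, with mitochondrially encoded frames in red. The points follow the dashed line of equal values (r = 0.901), with ATP8, COX1 and YOR029W at the top end and VPS30, ERG9 and NCE102 at the low end.

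Among annotated genes the deepest fall was that of VPS30, a subunit of the Vps34 lipid kinase complexes that serve autophagy and protein sorting. It stood at -3.42 and -3.53 on replicates 1 and 2, a mean of -3.48 ± 0.11 (SE, n = 2), with a limma adjusted p of 5.98e-05. Both values lay below the range of the control spots. ERG9, squalene synthase, followed at -2.82 and -2.97. NCE102, which organises eisosomes, stood at -2.56 and -2.38, and TMC1, a zinc finger protein linked to protein stress, at -2.46 and -2.39. Not every annotated gene that fell this far is given here. Some other falls of that size fell on genes of respiration and its control. ATP2, the catalytic subunit of the ATP synthase, lay at -2.31 and -2.32, ISU1, the scaffold for iron-sulfur clusters, at -2.34 and -2.23, and HAP4, the activator subunit of the Hap complex, at -2.35 and -2.02. The co-chaperone gene STI1 stood at -2.38 and -2.12, and its neighbour CIN5, a bZIP transcription factor of the stress response, at -2.04 and -2.31. CUL3, a cullin of ubiquitin ligases, was at -2.15 and -2.11, and ROQ1, which directs the ligase Ubr1 to misfolded proteins, at -1.98 and -2.12. MOR1 was also among the 20 deepest falls of annotated genes, but its arrays lay far apart, at -3.16 and -0.93, so that its place there rested on replicate 1.

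The 20 highest annotated genes held a block of mitochondrially encoded frames, given in the next paragraph, and nuclear genes of mixed function. YOR029W, an open reading frame with no known role that lies next to CIN5, stood at 4.53 and 4.43; the gene beside it thus fell while it rose. SKI3, a scaffold of the Ski complex that feeds the RNA exosome, was at 3.97 and 3.26, with a limma adjusted p of 0.000155. CWC23, a spliceosomal J protein, stood at 3.57 and 3.54, and SNO4, a relative of the chaperone Hsp31, at 3.57 and 3.36. GAL2, the galactose permease, was at 2.93 and 3.15 in glucose medium. IMP1, a protease of the inner mitochondrial membrane, was at 2.90 and 3.09, and TUS1, an exchange factor of the wall-integrity GTPase Rho1, at 2.97 and 2.96. ARO3, which starts aromatic amino acid synthesis, stood at 2.98 and 2.90, and TEL1, a DNA damage checkpoint kinase, at 2.91 and 2.75. The adjacent subtelomeric frames YIL174W and YIL175W were at 3.91 and 2.54 and at 2.69 and 3.00.

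The mitochondrial genome did not move as a whole. Of its 28 frames on the array, 18 rose (64.3%, against 27.3% of all genes), 2 fell (7.14%, against 26.7%) and 8 did not pass. Their median was 1.09, against -0.02 over all genes. Without replicate 1 or 2, 15 or 16 rose and 1 fell. The frames that rose most were COX1, ATP8 and ATP6, which lie next to each other on the mitochondrial DNA and are known to be copied as 1 long transcript. COX1, the core subunit of cytochrome oxidase, stood at 4.18 and 3.85, with a limma adjusted p of 0.000104. ATP8 was at 4.83 and 4.58 and ATP6 at 3.63 and 4.30, both subunits of the membrane part of the ATP synthase. The named frames inside the COX1 introns all rose, over a wide range: AI5_ALPHA was at 3.88 and 4.00, AI1 at 3.44 and 3.08, AI3 at 2.57 and 2.43, AI4 at 2.52 and 2.45, AI5_BETA at 2.01 and 2.62 and AI2 at 1.37 and 1.08. The call of AI2 was lost without replicate 1 (adjusted p = 0.21), without replicate 2 (0.129) and under quantile normalization. COX3, a further oxidase subunit encoded apart from these, was at 1.44 and 1.22, close to AI2. By contrast COB, cytochrome b, stood at -0.01 and 0.05 and did not pass (adjusted p = 0.874), while the frames in its introns ranged from -0.06 for BI3 to 0.78 for BI2. VAR1, the ribosomal protein of the organelle, was at -0.11 and -0.20 and did not pass. OLI1, the ring subunit of the ATP synthase, fell, with -0.86 and -0.81. COX2 also fell, at -0.45 and -0.45, a call lost without replicate 1 (adjusted p = 0.107) and without replicate 2 (0.104). In BY4742 the frames of the COX1 to ATP6 stretch were thus separated from COB, COX2, OLI1 and VAR1 by more than the spread between arrays. High values were not confined to the frames named above. Q0010, Q0017, Q0032 and Q0092 also rose, with means of 3.245, 3.582, 3.927 and 3.853.

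**Figure D2:**
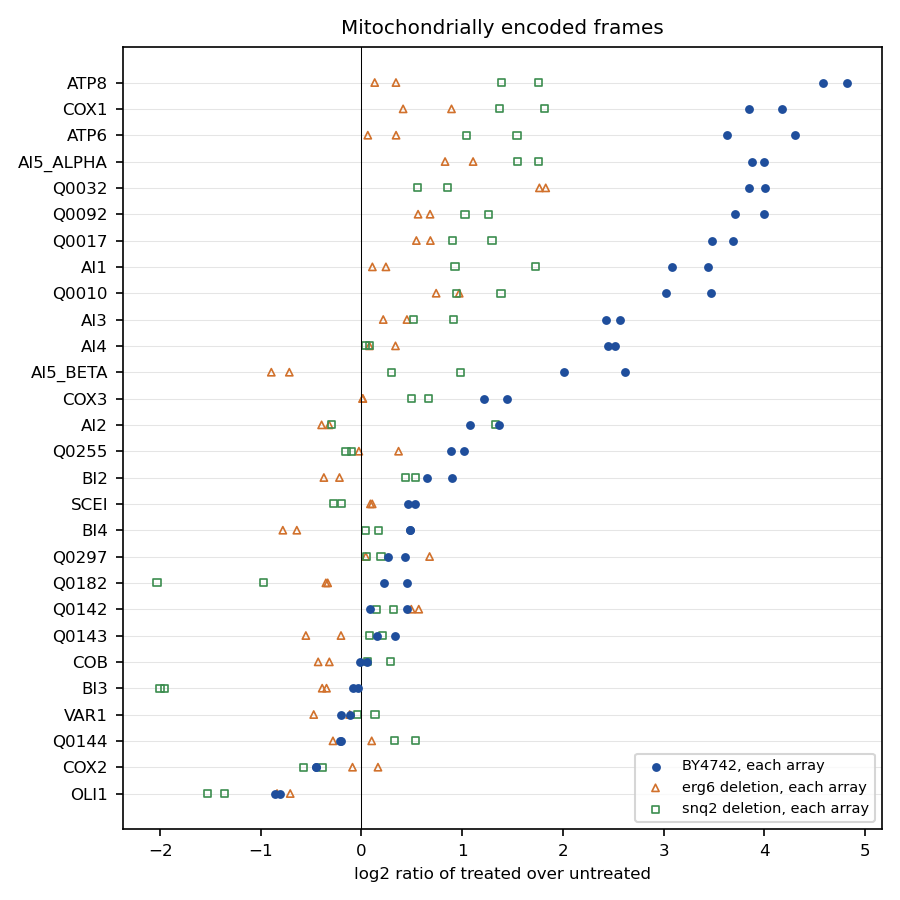
Log2 ratio of treated over untreated (x axis) for each of the 28 mitochondrially encoded frames, ordered from top to bottom by their BY4742 mean, with 1 mark per array: filled circles for BY4742, open triangles for the erg6 deletion and open squares for the snq2 deletion. BY4742 stands highest at ATP8, COX1, ATP6 and AI5_ALPHA, followed by Q0032 and Q0092, while COB, VAR1, COX2 and OLI1 lie near or below 0.

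Factors that act on mitochondrial RNA did not share 1 direction. MTF1, the specificity factor of mitochondrial RNA polymerase, rose, at 1.30 and 1.46, and so did HMI1, a DNA helicase of the organelle, at 0.86 and 1.00. ABF2, which packages mitochondrial DNA, fell, at -1.04 and -1.15. CBP1, which stabilises COB mRNA, rose, at 1.24 and 1.03. The degradosome genes SUV3 at 0.68 and 0.78 and DSS1 at -0.34 and -0.33 did not pass (adjusted p = 0.309 and 0.358). Both passed in limma when the fit used the BY4742 arrays alone (adjusted p = 0.00545 and 0.0311).

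Nuclear genes of the respiratory chain and the ATP synthase fell in the main. Of 41 measured, 28 fell, 4 rose and 9 did not pass, against 26.7% and 27.3% over all genes, with a median of -0.62. Leaving out replicate 1 or 2 left 20 or 22 that fell, and 1 or 2 that rose. RIP1, the iron-sulfur protein of complex III, stood at -1.89 and -1.86. SDH2 and SDH3, subunits of succinate dehydrogenase, were at -1.72 and -1.73 and at -1.66 and -1.63, and COX5A of complex IV at -1.70 and -1.88. All of these lay below the pooled range of the control spots on both arrays, but both SDH genes lay inside the range of the Blank spots (down to -1.77). QCR10, which sits at the edge of complex III, rose the most, at 2.13 and 2.04. Of cytochrome oxidase, the mitochondrially encoded COX1 and COX3 rose and COX2 fell, and 7 of 9 nuclear genes fell.

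The supporting machinery split more evenly. Of 44 respiratory regulators and assembly factors 12 fell and 8 rose (27.3% and 18.2%, against 26.7% and 27.3% of all genes; 3 and 4 without replicate 1, 4 and 6 without replicate 2), with HAP4 lowest and the ATP synthase assembly factor ATP23 up, at 0.95 and 0.74. Of 73 mitochondrial ribosomal proteins 19 fell and 16 rose (26% and 21.9%, close to all genes; 10 and 8 without replicate 1, 11 and 9 without replicate 2). RSM18 was lowest, at -1.71 and -1.95, and MRPL20 highest, at 2.28 and 2.27. POR1, the main channel of the outer membrane, fell, at -1.41 and -1.62, as did OM14, another outer membrane protein, at -1.63 and -1.62. The chaperonin gene HSP60 fell, at -1.19 and -1.12, and ARH1, a reductase of iron-sulfur cluster assembly, at -1.62 and -1.80. IBA57, a late factor of the same assembly line, rose, at 1.48 and 1.23. HEM2, a haem synthesis enzyme, fell, at -1.50 and -1.57.

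Of 24 glycolysis and fermentation genes 13 rose and 4 fell (54.2% and 16.7%, against 27.3% and 26.7% of all genes), with a median of 0.56, and 11 or 13 rose and 3 or 2 fell without replicate 1 or 2. TDH1, glyceraldehyde-3-phosphate dehydrogenase, stood at 2.02 and 2.43, PGK1, phosphoglycerate kinase, at 1.86 and 1.54, and ENO2, enolase, at 1.73 and 1.60. PDC1, the main pyruvate decarboxylase, was at 1.65 and 1.48, and ADH4, an alcohol dehydrogenase, at 1.81 and 2.07. The kinases that bring sugar into the pathway went the other way: GLK1 fell, at -1.76 and -1.91, and HXK1 fell, at -1.54 and -1.54. These are genes known to be kept low by glucose. ADH1 at -0.10 and -0.34 and HXK2 at -0.12 and -0.35, the forms used in glucose, did not pass (adjusted p = 0.129 and 0.0804). The TDH genes are near-identical copies, and how far 1 probe reads another was not analysed here.

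Genes for growth without sugar fell more often than they rose. Of 21 glyoxylate cycle and gluconeogenesis genes 11 fell and 4 rose (52.4% and 19%, against 26.7% and 27.3% of all genes; 8 and 2 without replicate 1, 6 and 2 without replicate 2). IDP2, cytosolic isocitrate dehydrogenase, was at -1.74 and -1.43, MLS1, malate synthase, at -1.41 and -1.06, and ADR1, an activator of genes for growth without sugar, at -1.12 and -1.80. MDH3, the peroxisomal malate dehydrogenase, rose, at 2.34 and 2.10. In the tricarboxylic acid cycle 9 of 22 fell and 2 rose (40.9% and 9.09%; 5 and 2 without replicate 1, 7 and 0 without replicate 2), with IDH2, a subunit of isocitrate dehydrogenase, at -1.37 and -1.44 and KGD1, of the ketoglutarate dehydrogenase complex, at -1.34 and -1.07. Of 20 trehalose and glycogen genes 12 fell and 1 rose (60% and 5%; 8 fell without replicate 1). GLC3, the glycogen branching enzyme, was at -0.85 and -1.06, TSL1, a trehalose synthase subunit, at -0.82 and -0.99, and the glycogen synthase gene GSY2, which rose, at 1.49 and 1.81. ZWF1, which opens the pentose phosphate pathway and feeds NADPH, fell, at -1.80 and -1.86.

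Ergosterol synthesis did not move as 1 unit. Of 36 sterol genes 15 fell and 9 rose (41.7% and 25%, against 26.7% and 27.3% of all genes; 9 and 5 without replicate 1, 11 and 7 without replicate 2), and the median was -0.13. ERG9 stood apart from its neighbours in the pathway, at the point where sterol synthesis leaves the shared isoprenoid route. The mean of ERG9 was -2.89 ± 0.11 (limma SE, n = 2, limma adjusted p = 7.73e-05). The enzyme before it, ERG20, farnesyl diphosphate synthase, fell, at -0.69 and -0.68 (adjusted p = 0.0933 without replicate 1 and 0.0845 without replicate 2), and the enzyme after it, ERG1, squalene epoxidase, did not pass, at -0.08 and -0.17 (adjusted p = 0.242). ERG7, lanosterol synthase, rose, at 0.74 and 0.98. ERG11, the target of azole antifungals, was at 0.23 and 0.07 and did not pass (adjusted p = 0.375), nor did HMG1, a reductase that limits the mevalonate route, at 0.04 and 0.14 (adjusted p = 0.602).

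Later steps again went both ways. ERG24, sterol reductase, fell, at -1.17 and -1.11, and so did ERG28, the scaffold of the demethylation complex, at -1.33 and -1.07, and ERG4, which makes the last reduction, at -1.06 and -0.85. ERG3, a desaturase, rose, at 0.96 and 1.00. ERG6 itself, present in BY4742, fell, at -0.66 and -0.43, a call lost without replicate 1 (adjusted p = 0.11). The sterol sensor UPC2 rose, at 0.63 and 1.16, while its relative ECM22 fell, at -1.11 and -0.57. ARE2, a sterol acyltransferase, rose, at 0.77 and 0.83.

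**Figure D3:**
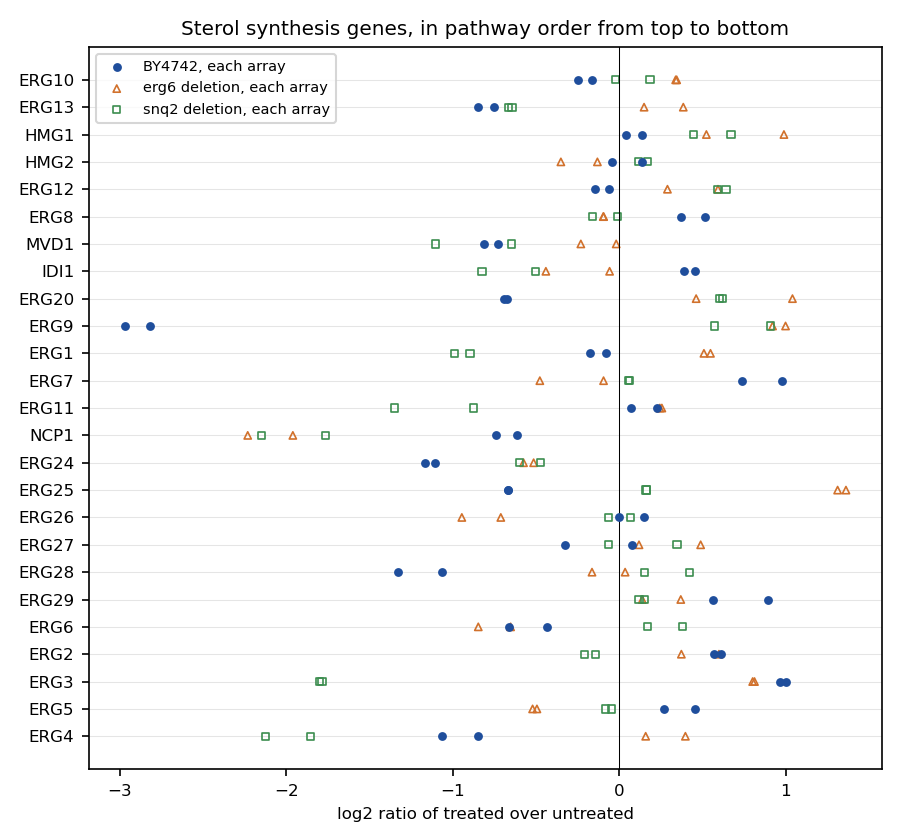
Log2 ratio of treated over untreated (x axis) for sterol synthesis genes in pathway order from top to bottom, 1 mark per array: filled circles for BY4742, open triangles for the erg6 deletion and open squares for the snq2 deletion. In BY4742 ERG9 lies near -2.9 and no other gene shown lies below -1.33, while the deletion strains have ERG9 above 0 on all 4 arrays. Marks of the erg6 deletion at ERG6 come from cells without that gene.

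Seripauperins, small wall mannoproteins known to be switched on without oxygen or when sterol runs short, rose almost throughout. Of 26 PAU and DAN genes 21 rose, 1 fell and 4 did not pass, with a median of 1.44, and 20 or 21 rose without replicate 1 or 2. The 1 fall, that of PAU8, was lost without replicate 2 (adjusted p = 0.0751). PAU22 was at 2.53 and 2.18, PAU3 at 1.94 and 2.06 and PAU4 at 2.01 and 1.71. The shares that rose and fell were 80.8% and 3.85%, against 27.3% and 26.7% of all genes. None of the 26 lay outside the range of the control spots, whose median was also above 0. Of the empty spots 34.1% passed above 0. DAN1, a mannoprotein of less similar sequence, was at 0.67 and 0.23 and did not pass (adjusted p = 0.184). PAU genes are near-identical copies, and how far 1 probe reads another was not analysed here. The sterol importer AUS1, another gene known from cells without oxygen, rose, at 2.02 and 1.73, and so did TIR3, at 1.28 and 1.22, while TIR1, a wall protein of the same setting, fell, at -1.70 and -2.11.

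Lists of other membrane lipids differed among themselves. Of 26 phospholipid genes 8 fell and 7 rose (30.8% and 26.9%, against 26.7% and 27.3% of all genes), with a median of 0.08. Of 18 fatty acid genes 7 fell and 1 rose (38.9% and 5.56%), with a median of -0.49. FAS1, a subunit of fatty acid synthase, stood at -1.85 and -1.75, and OLE1, the desaturase that makes unsaturated fatty acids, at -1.17 and -1.28. Of 24 sphingolipid genes 12 fell and 4 rose (50% and 16.7%; 8 fell without replicate 2). SUR1, which adds mannose to sphingolipids, was at -1.74 and -2.21, ORM1, a regulator of the first step, at -1.63 and -1.47, and SCS7, a ceramide hydroxylase, at -1.31 and -1.59. LCB3, a phosphatase of sphingolipid bases, rose, at 0.96 and 0.83, and so did YPC1, which acts in breakdown of the same lipids, at 0.60 and 0.87.

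Of 18 eisosome genes 12 fell and 4 rose (66.7% and 22.2%, against 26.7% and 27.3% of all genes; 8 fell without replicate 2). Both structural subunits fell, PIL1 at -1.07 and -1.34 and LSP1 at -1.88 and -2.33, and YNL194C, a relative of SUR7, at -1.95 and -1.49. The kinases that act on eisosomes and on sphingolipid synthesis split, with PKH1 up, at 0.74 and 0.94, YPK1 up, at 0.61 and 0.66, and YPK2 down, at -1.72 and -1.41. Of 17 plasma membrane ion transport genes 10 fell and 1 rose (58.8% and 5.88%; 8 and 0 without replicate 1), with a median of -0.66. PMA1, the proton pump, was at -0.36 and -0.07 and did not pass (adjusted p = 0.213), while its companion PMP2 fell, at -1.42 and -1.20, as did HRK1, a kinase that activates the pump, at -1.41 and -1.20. PMC1, the vacuolar calcium pump, fell, at -1.30 and -1.27. Of 17 vacuolar ATPase genes 6 rose and 1 fell (35.3% and 5.88%; 3 rose without replicate 1 or 2), led by VMA5 at 1.78 and 1.75 and STV1 at 1.86 and 1.70.

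Of 70 cell wall genes 33 fell and 9 rose (47.1% and 12.9%, against 26.7% and 27.3% of all genes; 4 rose without replicate 1), and the median was -0.29. The PIR proteins, which are bound to glucan, fell in 4 of 5 cases, with PIR3 at -2.04 and -2.14 and HSP150 at -1.62 and -1.98. SED1, the main wall protein of resting cells, was at -1.87 and -1.97, and the yapsin protease YPS1 at -2.27 and -2.05. FKS1, glucan synthase, fell, at -1.02 and -1.21, and the kinase of the wall-integrity route SLT2 fell, at -1.14 and -1.05, a call lost without replicate 1 (adjusted p = 0.0796) and without replicate 2 (0.0616). Upstream of SLT2, PKC1 rose, at 1.20 and 1.24, and so did the sensor WSC4, at 1.21 and 1.12.

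Drug resistance genes rose in 14 of 41 cases and fell in 9 (34.1% and 22%, against 27.3% and 26.7% of all genes; 8 and 4 without replicate 1, 9 and 4 without replicate 2). The main regulator PDR1 fell, at -1.26 and -1.31, with a limma adjusted p of 0.000369. Its best known target PDR5 was at -0.09 and -0.24 and did not pass (adjusted p = 0.186), and PDR3 and PDR15 did not pass either, with means of -0.02 and 0.01. SNQ2, present in BY4742, fell, at -0.34 and -0.36, a call lost without replicate 1 (adjusted p = 0.136) and without replicate 2 (0.148). Both families of exporters held genes that rose. Of 13 ABC transporters, the family of PDR5 and SNQ2, 6 rose (46.2%) and 2 fell (15.4%), against 27.3% and 26.7% of all genes. Most of these 6 rises did not pass when either BY4742 array was left out, and under quantile normalization 4 ABC transporters rose. Of 14 major facilitator exporters, which are proton antiporters, 5 rose (35.7%) and 2 fell (14.3%). The highest ABC transporter was AUS1, given above. Among major facilitator exporters QDR2 was at 2.39 and 2.37 and QDR3 at 1.18 and 0.94. ICT1, a membrane lipid enzyme, fell, at -1.15 and -1.11.

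Among genes of protein folding more fell than rose. Of 55 cytosolic chaperones 24 fell and 11 rose (43.6% and 20%, against 26.7% and 27.3% of all genes; 15 and 5 without replicate 1, 16 and 9 without replicate 2). SSE2, an exchange factor of Hsp70, was at -1.24 and -1.25, SSA4, an Hsp70, at -1.13 and -1.22, YDJ1, an Hsp40, at -1.22 and -1.27, and the disaggregase HSP104 at -0.96 and -1.08. HSP12, a membrane-associated stress protein, was at -1.39 and -1.31. Of the chaperonin ring, CCT8 fell, at -1.22 and -1.41, and CCT3 rose, at 2.10 and 1.68. HAC1, the transcription factor of the unfolded protein response, fell, at -1.60 and -1.63, and KAR2, its target and the Hsp70 of the endoplasmic reticulum, fell, at -0.70 and -0.72.

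The Hsp31 family divided. HSP31, a glyoxalase and chaperone with its own locus, fell, at -1.61 and -1.58. Its copies HSP32, HSP33 and SNO4 rose, HSP32 at 2.64 and 2.41, HSP33 at 2.65 and 2.30 and SNO4 as given above. These 3 are near-identical genes at chromosome ends, and how far 1 probe reads another was not analysed here. Of 34 proteasome genes 14 fell and 5 rose (41.2% and 14.7%, against 26.7% and 27.3% of all genes; 7 and 1 without replicate 1, 5 and 1 without replicate 2), with RPT5 at -1.15 and -1.22 and PRE7 at 1.43 and 1.36. UBI4, the stress-induced polyubiquitin gene, fell, at -1.40 and -1.36. The vacuolar proteases PEP4 and PRB1 fell, with means of -1.02 ± 0.09 and -1.06 ± 0.08 (limma SE). APE3, a vacuolar aminopeptidase, rose, at 2.69 and 2.63.

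General stress genes fell in 18 of 32 cases and rose in 3 (56.2% and 9.38%, against 26.7% and 27.3% of all genes; 1 rose without replicate 1), with a median of -0.66. DDR2, a textbook target of Msn2 and Msn4, was at -1.76 and -1.73, CTT1, cytosolic catalase, at -1.31 and -1.54, and PNC1, nicotinamidase, at -1.81 and -1.89. MSN4 itself fell, at -1.81 and -1.57. Of 36 redox genes 16 fell and 6 rose (44.4% and 16.7%; 3 and 4 rose without replicates 1 and 2), with the peroxiredoxins AHP1 at -1.81 and -1.73 and TSA1 at -1.25 and -1.37 and the glyoxalase GLO1 at -1.87 and -2.08. TRX1, thioredoxin, rose, at 0.65 and 0.88.

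**Figure D4:**
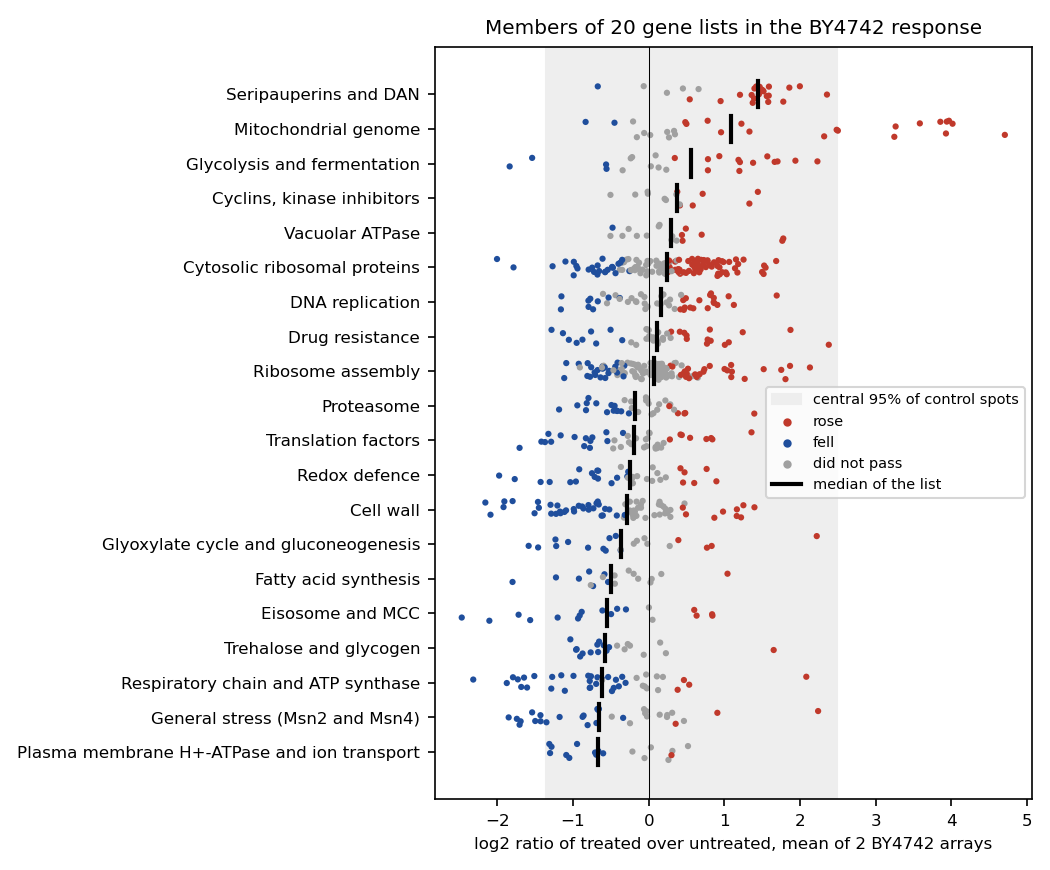
Mean log2 ratio of the 2 BY4742 arrays (x axis) for the members of 20 gene lists, 1 point per gene, red where the gene rose, blue where it fell and grey where it did not pass, with the list median as a black bar and the central 95% of control spots (-1.36 to 2.49) shaded. Seripauperins and mitochondrial frames sit to the right of 0, and ion transport, general stress and nuclear respiratory genes to the left, with most points inside the shaded range.

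Growth genes did not fall together. Of 136 cytosolic ribosomal proteins 63 rose and 26 fell (46.3% and 19.1%, against 27.3% and 26.7% of all genes), with a median of 0.25. Without replicate 1 the counts were 36 and 16, and without replicate 2 they were 44 and 15. RPL31A stood at 1.68 and 1.68 and RPL25 at 1.61 and 1.44, whereas the copies RPS11A and RPS11B fell, at -2.04 and -1.97 and at -1.69 and -1.89. How far the probe of 1 copy reads the other was not analysed here. Of 125 ribosome assembly genes 26 rose, 23 fell and 76 did not pass (20.8% rose and 18.4% fell; 11 and 7 without replicate 1, 12 and 8 without replicate 2), and the median of 0.07 was close to that of all genes. RIO2, a kinase of late small-subunit maturation, rose, at 2.08 and 2.18. Of 42 translation factors 15 fell and 8 rose (35.7% and 19%; 4 rose without replicate 1 or 2), with GCD6, a subunit of the exchange factor of initiation, at -1.73 and -1.69 and its partner GCD7 at 1.55 and 1.17.

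Cell cycle genes gave few clear groups. No cyclin or kinase inhibitor of 14 fell and 6 rose (42.9%), against 26.7% and 27.3% of all genes. Fewer passed as rises when either BY4742 array was left out. CLB3, a mitotic cyclin, was at 1.47 and 1.42 and WHI5, the inhibitor of Start, at 1.51 and 1.15. Of 49 replication genes 18 rose and 9 fell (36.7% and 18.4%; 11 and 4 without replicate 1, 13 and 5 without replicate 2), with MCM10 at 1.87 and 1.51 and RNR4, a ribonucleotide reductase subunit, at -1.18 and -1.13. HTB2, a histone H2B gene, fell, at -1.70 and -1.51, while its partner copy HTB1 was at -0.05 and -0.33 and did not pass (adjusted p = 0.183). ACT1, actin, fell, at -0.94 and -1.10.

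Nutrient genes also moved singly. GCN4, the activator of amino acid synthesis, fell, at -1.13 and -1.28, while of its 51 listed genes 14 rose and 16 fell (27.5% and 31.4%, against 27.3% and 26.7% of all genes; 6 and 7 without replicate 1, 8 and 7 without replicate 2). LEU9 rose, at 1.43 and 1.47, and HIS1 rose, at 1.64 and 1.40. GLN1, glutamine synthetase, fell, at -1.84 and -1.79, and so did GLN3, the nitrogen regulator that acts on it, at -1.16 and -1.49. The urea permease DUR3 and the allantoin permease DAL4 rose, at 1.46 and 1.45 and at 1.38 and 1.32. SAM1, which makes S-adenosylmethionine, fell, at -1.38 and -1.30. The high-affinity phosphate transporters PHO84 and PHO89 fell, at -1.75 and -1.42 and at -1.35 and -1.23, and the low-affinity one PHO87 rose, at 2.39 and 2.19. CCC1, the vacuolar iron importer, rose, at 1.71 and 1.39.

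For 102 pairs of nuclear neighbours whose reading frames overlap, the mean log2 ratios correlated at r = 0.672 across pairs, against 0.090 for 5689 pairs that do not overlap. This is a description across genes, which are not independent. Overlapping frames can share RNA and probe sequence, and the strand and sequence of the probes were not analysed here. Chromosome medians ran from -0.18 on chromosome VII to 0.28 on chromosome I, and chromosome I had 40 genes that rose and 15 that fell, of 91. Chromosome III leaned the same way, with 60 that rose and 17 that fell, of 160. Among all annotated genes 26% rose and 27.8% fell. The lowest mean of any gene in BY4742 was that of YLR338W, at -3.39 and -3.65, a frame not annotated in the current assembly, chosen here after its value was seen.

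The mating type of the strain could not be checked, since a ratio of treated over untreated gives no level. The alpha-specific receptor gene STE3 was at 0.04 and -0.21 and the a-specific one STE2 at 0.24 and 0.01, and neither passed (adjusted p = 0.509 and 0.376). Of the markers of the strain, URA3 was at 0.13 and 0.30 and HIS3 at 0.26 and 0.15, neither past the threshold. LYS2 rose, at 0.45 and 0.26, a call lost without replicate 1 (adjusted p = 0.273), without replicate 2 (0.0953) and under 4 further alternatives. LEU2 stood at -1.53 and 0.42, on opposite sides of 0. URA3, HIS3, LYS2 and LEU2 are mutant in BY4742, and what RNA their probes read was not analysed here. Their values are thus not read as a response of these genes.

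The response of BY4742 was set against the mean response of both deletion strains, which were treated and measured in the same way. The difference passed for 3201 genes (50.3%), with BY4742 higher for 1877 (29.5%) and lower for 1324 (20.8%). Leaving out BY4742 replicate 1 or 2 left 1924 or 2062. Of the 1698 genes that fell in BY4742, 290 (17.1%) fell in both deletion strains as well and 193 (11.4%) rose in both, against 8.52% and 10.2% of all genes. Of the 1736 that rose in BY4742, 218 (12.6%) rose in both and 48 (2.76%) fell in both, against 10.2% and 8.52% of all genes. Each strain had its own untreated cells, so the comparisons share no control sample.

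ERG9 had the lowest difference of all, -3.74: it stood at -2.82 and -2.97 in BY4742, against 1.00 and 0.92 in erg6 deletion cells and 0.57 and 0.91 in snq2 deletion cells. SDH3 stood at -1.66 and -1.63 in BY4742, against 1.80 and 1.59 in erg6 deletion cells and 1.37 and 1.45 in snq2 deletion cells. For both genes the BY4742 arrays lay below 0 and all deletion arrays above it. LSP1 differed by -3.03, OM14 by -3.27, HTB2 by -2.93, CTT1 by -2.90 and DDR2 by -2.87, and ALD4, mitochondrial aldehyde dehydrogenase, by -2.88. In each of these the 3 strains were also split by sign. SEC17, of vesicle fusion, differed by -2.76 and YNL195C by -2.78. The adjusted p of these differences ran from 0.000247 to 0.000407 in limma.

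By list, the nuclear respiratory genes were lower in BY4742 than in the deletion strains for 34 of 41 (28 and 30 without BY4742 replicates 1 and 2), and their medians were -0.62 in BY4742, 1.01 in erg6 deletion cells and 0.36 in snq2 deletion cells. Tricarboxylic acid cycle genes were lower for 18 of 22, proteasome genes for 23 of 34 (14 and 11 without replicates 1 and 2) and general stress genes for 22 of 32. Background for these counts is the 20.8% of all genes that were lower in BY4742. The deletion strains had positive medians for each of these 4 lists, and BY4742 negative ones. The carbonic anhydrase gene NCE103 differed by -2.57 without passing in BY4742 itself: it stood at -0.13 and -0.18 in BY4742 and did not pass (adjusted p = 0.148), against means of 1.87 in erg6 deletion cells and 2.96 in snq2 deletion cells.

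Higher in BY4742 were 71 of 125 ribosome assembly genes (30 and 37 without BY4742 replicates 1 and 2), 19 of 28 mitochondrial frames and 19 of 26 seripauperin and DAN genes, against 29.5% of all genes. Ribosome assembly genes had a median of 0.07 in BY4742, -0.25 in erg6 deletion cells and -0.78 in snq2 deletion cells, so the difference came with lower values in the deletion strains. Mitochondrial frames had medians of 1.09 in BY4742, 0.13 in erg6 deletion cells and 0.46 in snq2 deletion cells. ATP8 differed by 3.80, YOR029W by 4.24, SKI3 by 3.56, GAL2 by 3.18 and YOL163W, a transporter-like frame, by 3.11. The highest difference, that of YBR085C-A (5.19), rested on its fall in the deletion strains, since in BY4742 it stood at 0.50 and 2.10 and did not pass (adjusted p = 0.113). RRT5 and BSC1 likewise did not pass in BY4742, with means of 0.89 and -0.26 there, against -3.98 and -4.07 in the erg6 deletion. YDR222W was at 0.34 and 0.30 in BY4742, against means of -3.51 in erg6 deletion cells and -3.12 in snq2 deletion cells, and its small rise in BY4742 was lost without replicate 1 (adjusted p = 0.239) and without replicate 2 (0.187).

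**Figure D5:**
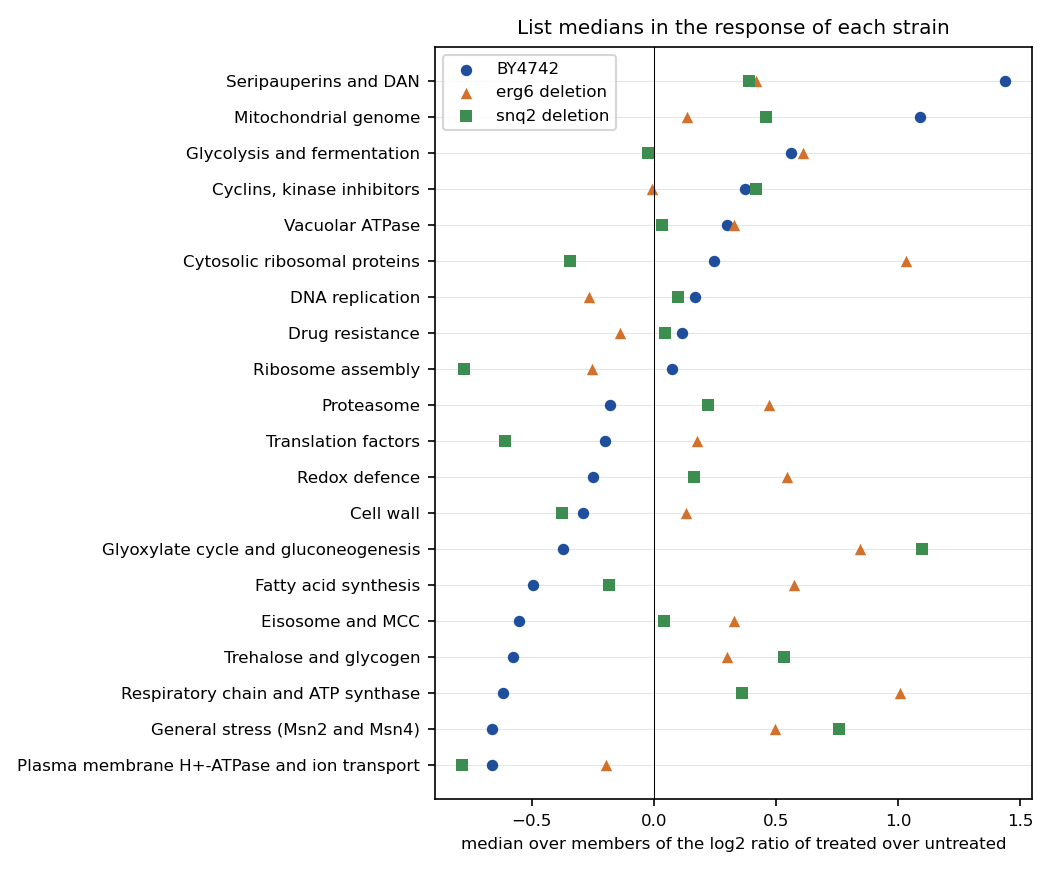
Median over members of the mean log2 ratio of treated over untreated (x axis) for 20 gene lists, with circles for BY4742, triangles for the erg6 deletion and squares for the snq2 deletion, ordered by the BY4742 median. Nuclear respiratory, glyoxylate, storage carbohydrate and general stress lists have BY4742 left of 0 and both deletion strains right of it.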

How the data were processed

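The authors deposited 1 signed log2 value per feature and array for 6 arrays with 2 colours, scanned on a GenePix 4000B per the labels. How background was corrected, signals normalized and spots filtered is not stated in the labels, nor are the log base and direction. They were read as treated over untreated on a log2 scale, since the sample titles name treated against untreated and channel 1 holds the treated RNA. Per the labels, total RNA was copied with oligo-dT and random primers and dyed through aminoallyl nucleotides, with Cy5 for treated and Cy3 for untreated cells on every array.

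Features named Blank (144) or empty (539) were kept apart as controls. Of the other 6362, 5826 matched a locus tag of the RefSeq table of assembly R64, used for names and neighbours. In limma 3.58.1 (R 4.3.3), lmFit took 1 mean per strain over all 6 arrays and eBayes moderated the variance (2.45 prior degrees of freedom beside 3 residual ones). Benjamini-Hochberg adjustment ran over the 6362 genes, and adjusted p-values were held to 0.05. Spread is pooled over the 3 strains and taken as equal, while that of the erg6 deletion was larger. Control spots were judged at the same unadjusted p, with the variance prior of the genes. The fit was also run on simulated data with noise centred on 0. Control spots were not centred there (median 0.57), so the simulation does not bear on how often they pass.

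The comparison, the gene lists and their members were chosen with earlier results of these data known. Named genes are the 20 highest and 20 lowest annotated genes that passed, the 10 highest and 10 lowest differences from the deletion strains, up to 4 at each end of a list, and a set of pathway landmarks. From these 460 the text gives 183, mostly ones whose call held without either BY4742 array. COB, COX3, VAR1, BI2, BI3, AI2, AI3, AI4, AI5_BETA, ADH1, HXK2, PDC1, DAN1, PIL1, SLT2, ERG20, ECM22, HTB1 and YLR338W lie outside that rule and were chosen after their values were seen. Alternatives were centring, quantile normalization, a replicate block, robust eBayes, array weights, BY4742 alone, annotated genes alone and leaving out each array. Probe sequences and intensities were not used here.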

Additional observations from a re-analysis of the deposited data

Results flagged for a closer look

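For the genes below, both BY4742 arrays lay on the other side of 0 from all 4 arrays of the deletion strains, and the difference between BY4742 and the mean of the deletion strains passed limma's test with Benjamini-Hochberg adjustment over all genes. Only genes named in this text were screened, so the list is a part of all such genes. By calls in each strain, 193 of all genes fell in BY4742 and rose in both deletion strains, and 48 went the other way. Each value below is the difference on the log2 scale, negative where BY4742 was lower.

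Among genes of sterol and lipid synthesis, the difference was -3.74 for ERG9 (squalene synthase), -1.37 for ERG20 (farnesyl diphosphate synthase) and -2.05 for OLE1 (fatty acid desaturase), against 1.08 for LCB3, a phosphatase of sphingolipid bases. Among mitochondrial genes it was -3.27 for OM14 and -2.38 for POR1 of the outer membrane, -3.20 for SDH3 (succinate dehydrogenase), -2.88 for ALD4 (aldehyde dehydrogenase) and -1.99 for ABF2, which packs mitochondrial DNA. Genes of carbon use stood at -2.75 for MLS1 (malate synthase), -2.58 for IDP2 (isocitrate dehydrogenase), -2.67 for GLK1 and -2.23 for HXK1 (both phosphorylate glucose), -2.07 for GLC3 (glycogen branching) and -1.29 for TSL1 (trehalose synthesis).

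Stress genes stood at -2.90 for CTT1 (cytosolic catalase), -2.87 for DDR2, -2.70 for HSP12, -2.33 for TSA1 (peroxiredoxin) and -2.17 for PNC1 (nicotinamidase). The eisosome genes LSP1 and PIL1 differed by -3.03 and -2.21, and the neighbouring frames YNL195C and YNL194C by -2.78 and -2.38. The vacuolar proteases PRB1 and PEP4 differed by -1.99 and -1.75. Also lower in BY4742, among the genes screened, were HTB2 (histone H2B) at -2.93, SEC17 (membrane fusion) at -2.76 and NCE103 (carbonic anhydrase) at -2.57. RNR4 (ribonucleotide reductase) stood at -2.47, GCN4 (activator of amino acid synthesis genes) at -1.95 and PHO89 (phosphate transporter) at -1.85.

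For SNQ2, a drug exporter, the value was -0.49, but it averages in both snq2 deletion arrays, of cells that lack the gene, and so is no difference in the response of SNQ2. Against the erg6 deletion alone, where the gene is present, it was -0.51 (limma adjusted p = 0.0184). The marker genes URA3 and HIS3 differed by 0.65 and 0.89, but both are mutant in BY4742 and what their probes read was not analysed here. The widest of these differences with BY4742 higher were 3.63 for YDR222W, whose call in BY4742 did not hold under several alternatives, and 5.19 for YBR085C-A, which did not pass in BY4742 alone.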

How the results depend on the processing

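Counts of genes past the threshold in BY4742 stayed within 1.5 times of 3434 under every alternative that kept both BY4742 arrays. Without a BY4742 array they ran from 1914 to 2149 genes, and for the difference from the deletion strains from 1924 to 2062, against 3201. Over all 6 arrays left out in turn, the ranges were 1914 to 3829 and 1924 to 3545. A lone array is there assumed to vary like those of the other strains. With the replicate number as a block, 3249 genes passed in BY4742 and 3032 for the difference. Same-numbered arrays did not deviate together (r = 0.095, -0.042 and -0.002 across genes for the 3 pairs of strains), and the main fit does not pair them. These correlations cannot tell whether same-numbered arrays were grown or handled together. Centring gave 1785 rises and 1625 falls, and quantile normalization 1632 and 1771. Of the 441 genes named by the rule that passed, 304 passed under every alternative and 137 lost the call without a BY4742 array. Of the 177 genes in the text that passed, 9 lost it without a BY4742 array, AI2 also under quantile normalization, and YDR222W and LYS2 also under quantile normalization, with the block and without an snq2 deletion array. None of these 177 turned its sign. Leaving out an array could not turn it, since a call needs both BY4742 arrays on 1 side of 0. Of the 25 that did not pass, 7 turned sign under some alternative (COB, LEU2, STE3, PDR3, PDR15, BSC1 and RRT5). Counts clear of the control spots, 56 rises and 184 falls with both kinds pooled, were 97 and 65 against Blank spots and 51 and 620 against empty spots, a setting chosen after seeing the data. Medians kept their sign for 52 of 57 lists; those of autophagy, hexose transport, iron-sulfur cluster assembly, phospholipids and secretory transport did not. Both colours without a dye swap, 2 arrays per strain and control spots away from 0 limit all values, and signal over background could not be computed.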
